A study of Mus musculus with 8 samples.

Results

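The genes described here are the cadherins and protocadherins of the mouse, calcium-dependent adhesion proteins, followed in hepatic stellate cells in which the kinase PAK4 was knocked down. They were taken as every protein-coding gene with a symbol that begins with Cdh and a number or with Pcdh, without the endothelial cadherin Cdh5. This gave 91 genes of the 45777 in the deposited table: 5 type I and 12 type II classical cadherins, 5 other cadherins, 12 protocadherins that stand alone in the genome and 57 protocadherins of the alpha, beta and gamma clusters. Both groups were primary cultures from livers of wild-type C57BL/6 males, labelled as hepatic stellate cells, which are liver pericytes that store vitamin A at rest and become myofibroblasts when activated. One group of 4 libraries (siControl) received a control siRNA and the other group of 4 (siPAK4) an siRNA against PAK4, while the cells activated, and all carry the label of batch 1. The sources used here give neither the age of the mice nor the time after transfection. They also do not say whether replicates came from separate mice or dishes, so a p-value here reflects only the spread among these samples, possibly a technical one.

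Classical cadherins hold like cells together through their outer domains and bind catenins inside the cell, which tie them to actin. Protocadherins have similar outer domains but other cytoplasmic tails: several of the delta-2 group bind the WAVE complex, which drives actin branching, and the clustered ones are known chiefly from neurons, where combinations of them give a cell its surface identity. In the liver, stellate cells are known for N-cadherin (Cdh2) and, once activated, for cadherin 11 (Cdh11). PAK4, a kinase activated by the small GTPase CDC42, acts on actin and on cell contacts.

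The libraries held 55728583 to 61535063 counts each. Pak4 itself, the target, had 17.2 ± 1.14 CPM (read counts scaled to library size; SD, n = 4) in siControl and 6.32 ± 1.13 in siPAK4 (log2 fold change -1.44, SE 0.118, adjusted p = 9.4e-06 by edgeR's quasi-likelihood test). The markers of the labelled cell type were unevenly present. In siControl, Dcn stood at 425 CPM, Reln at 30.9, Pdgfrb at 27.5, Hgf at 18.4 and Des at 18. The others of the list were lower, and Lrat, the enzyme that makes retinyl esters, stood at 0.0269 CPM. Summed over their lists, 10 stellate markers held 492 to 567 CPM in siControl, while 12 endothelial markers held 5877 to 6117 and 12 macrophage markers 9136 to 10592, both above the stellate sum. Dcn alone made up most of the stellate sum, and Lyz2, at 7815 CPM, most of the macrophage sum. In such bulk samples, fewer cells of a type and less RNA per cell cannot be told apart. Replicate 3 of siPAK4 stood apart from the other siPAK4 libraries on the second principal component, which held 13.3% of the variance, and results that rest on it are given without it as well.

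Of the 91 genes, 60 passed the filter on low counts and were tested, and 31 were not tested, 7 of them without a read in any library. The untested genes with the most reads were Pcdha9 with 75 reads over the 8 libraries, Pcdha12 with 71, Cdh17 with 69 and Pcdha10 with 64. Between the groups, 4 members rose and 10 fell at an adjusted p under 0.05, while 46 did not pass. Among all 17975 tested genes, 12.4% rose and 14.5% fell. The median log2 fold change of the 60 was -0.0535, against 0.00517 for all tested genes. In 12 of the 60, every siPAK4 library lay below every siControl library, and in 2 every siPAK4 library lay above, where 14.8% and 14% of all tested genes did so. Pcdh11x, which passed the filter through the siControl group, where it is high, is counted among the 10 and the 12. On the scale of TPM (values scaled to gene length and to library size), with limma on log2(TPM + 1), the split was 1 higher and 8 lower, where 11.2% of all tested genes were higher and 10.1% lower.

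The calls were unevenly placed in the family. Of the 18 tested genes outside the clusters, 9 fell (50%) and 1 rose (5.56%), with a median log2 fold change of -0.59. These falls and this median include Pcdh11x, which passed the filter through the siControl group, where it is high. Of the 42 tested genes of the clusters, 1 fell (2.38%) and 3 rose (7.14%), with a median of -0.00983. Among all tested genes 14.5% fell and 12.4% rose. Leaving aside Pcdh11x, members outside the clusters spanned -1.84 to 0.68 on the log2 scale, and those inside them -0.44 to 0.52. No test of the difference between these lists was made.

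**Figure D1:**
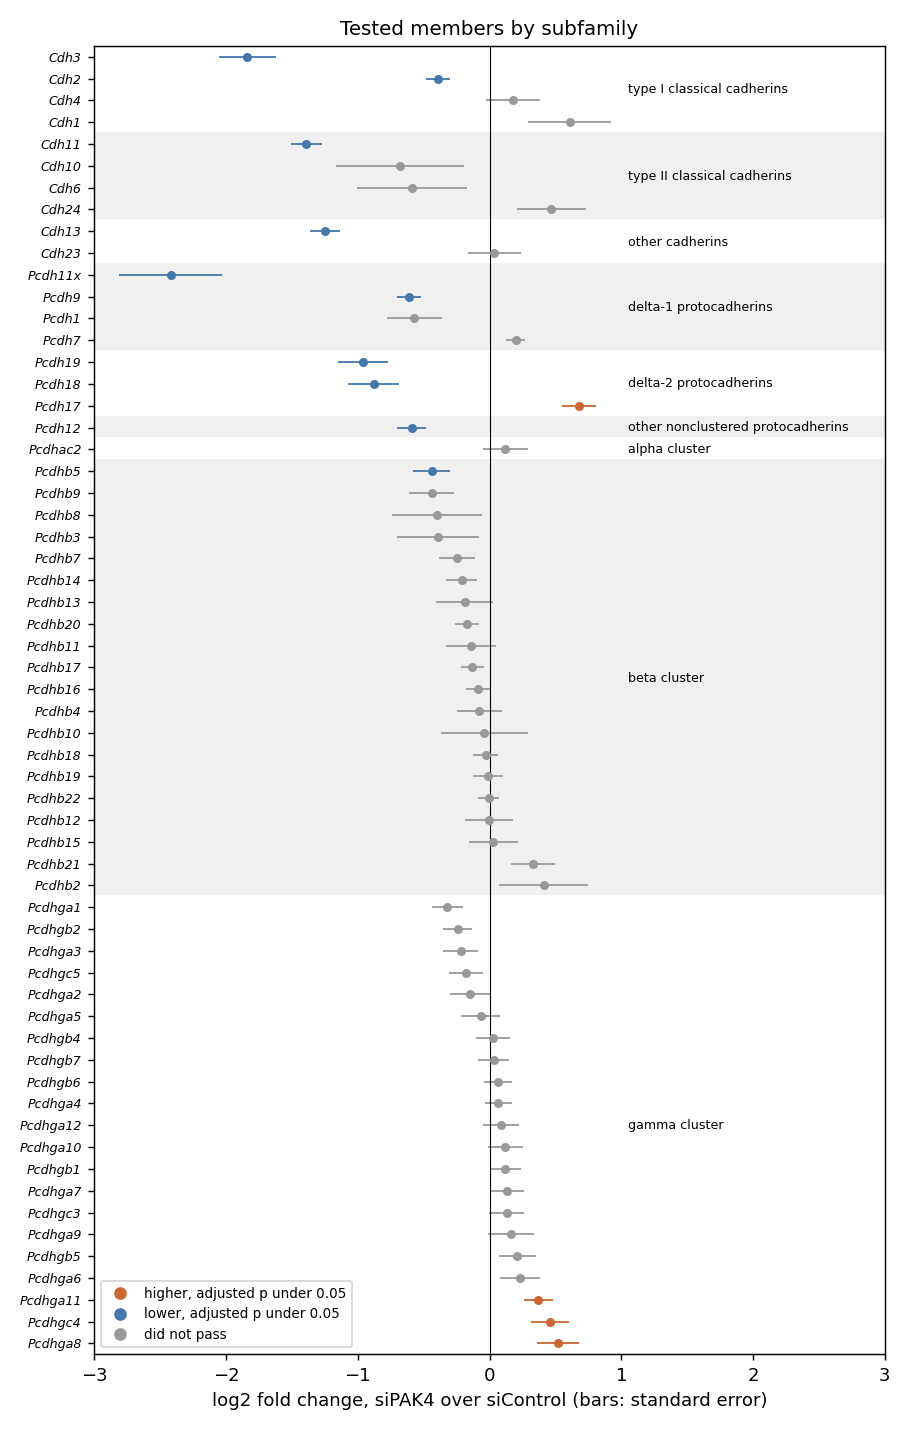
Log2 fold change of siPAK4 over siControl (x axis) for each of the 60 tested members (y axis, grouped by subfamily), with bars of 1 standard error from the edgeR fit. Orange points rose, blue points fell and grey points did not pass; the blue points lie almost all outside the clusters, and Pcdh17 at 0.68 lies farthest to the right.

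Levels per gene length set 8 members apart from the rest in siControl. Pcdhgc3, the most abundant, had 67.3 ± 9.75 TPM (SD, n = 4). It was followed by Cdh2 with 46.4 ± 5.13 TPM and Pcdh1 with 40.8 ± 4.26 TPM. The next 4, Cdh13, Pcdh17, Pcdh7 and Cdh11, lay between 30.9 and 33.9 TPM, within their spread of one another, and Pcdh12 had 26.8 ± 0.573 TPM. The ninth, Pcdhb17, had 13.9 ± 0.826 TPM. After knockdown Pcdhgc3 was still first with 76.2 ± 18.3 TPM and Pcdh17 second with 52.3 ± 12, while Cdh13 and Cdh11 stood at 14.7 ± 2.81 and 12.1 ± 1.95 TPM. Summed over all 91 members, the TPM were 461 ± 31.9 in siControl and 429 ± 74.5 in siPAK4, so the totals overlapped within their spread.

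Among the type I classical cadherins, 4 of 5 were tested, 2 fell (50%) and none rose, against 14.5% and 12.4% of all tested genes. The untested one, Cdh15 (M-cadherin of muscle), had no read. Cdh2, N-cadherin, read 113, 115, 103 and 94.4 CPM in siControl replicates 1 to 4 and 66.3, 85.3, 85.4 and 87.3 CPM in siPAK4 replicates 1 to 4. All siPAK4 libraries were below all siControl libraries, and replicate 1 was the lowest. The log2 fold change was -0.39 (SE 0.0921, adjusted p = 0.0092), that is 1.31-fold lower.

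Cdh3, P-cadherin, was a weakly expressed gene with a large relative change (GRCm38 chromosome 8, 106510852 to 106556911). Its siControl libraries read 4.3, 5.09, 4.84 and 3.61 CPM, and its siPAK4 libraries 1.24, 1.39, 0.715 and 1.62 CPM. The groups were far apart, with siPAK4 lower by 3.59-fold (log2 fold change -1.84, SE 0.216, adjusted p = 9.5e-05). Its neighbour Cdh1, E-cadherin of epithelia, starts 46438 bases beyond the end of Cdh3 (106603350 to 106670247). Cdh1 had 0.885, 0.411, 0.984 and 0.354 CPM in siControl and 0.83, 1.07, 0.998 and 1.14 CPM in siPAK4. Its groups overlapped, and the log2 fold change of 0.61 (SE 0.315) did not pass (adjusted p = 0.18). The adjacent genes thus differed in what was measured, although the difference between them was not tested. Cdh4, R-cadherin, ranged from 1.98 to 3.72 CPM in siControl and from 2.71 to 4.17 in siPAK4 and did not pass either (log2 fold change 0.18, adjusted p = 0.56).

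Among the 12 type II classical cadherins, 4 were tested and Cdh11 alone passed (25% fell, against 14.5% of all tested genes). Cdh11, an adhesion protein of fibroblasts and other mesenchymal cells, lies on chromosome 8 (102632095 to 102785493). It read 70.9, 78.6, 78.7 and 68.8 CPM in siControl and 21.2, 30.6, 29 and 32.7 CPM in siPAK4. The highest siPAK4 library was under the lowest siControl library by a wide margin, and the means were 74.3 ± 5.14 and 28.4 ± 5.02 CPM. Cdh11 thus fell 2.62-fold (log2 fold change -1.39, SE 0.115, adjusted p = 1.0e-05). Per gene length, Cdh2 exceeded Cdh11 by a ratio of 1.5 ± 0.129 in the siControl libraries (range 1.37 to 1.67) and of 3.01 ± 0.187 in the siPAK4 libraries (range 2.8 to 3.24). The ranges of this ratio did not overlap. Cdh24, a type II cadherin with a low level, ranged from 0.611 to 1.09 CPM and from 0.865 to 1.71 CPM, and did not pass (log2 fold change 0.47, adjusted p = 0.22). Cdh6 and Cdh10, the remaining tested members, were under 1 CPM in both groups.

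Cdh13, T-cadherin, differs from the classical cadherins in that it has no cytoplasmic tail: it is held in the membrane by a lipid anchor and is known as a receptor for adiponectin. The gene lies on chromosome 8 (118140017 to 119324929). Its siControl libraries read 57.9, 66.1, 60.2 and 62.3 CPM, and its siPAK4 libraries 28.9, 22.5, 21.4 and 30.9 CPM. The groups did not overlap, and the log2 fold change was -1.25 (SE 0.111, adjusted p = 1.5e-05), 2.38-fold lower. Cdh23, a component of the tip links of hair cells, was the only other cadherin outside the classical types with at least 1 CPM. It ranged from 1.1 to 1.97 CPM in siControl and from 1.3 to 1.81 CPM in siPAK4, and did not pass (adjusted p = 0.92).

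Markers of other cells moved beside these cadherins. The counts below stand against 12.4% of all tested genes that rose and 14.5% that fell. Of 8 mesothelial markers, 4 fell, among them Upk3b, a surface protein of the mesothelium (log2 fold change -2.10, adjusted p = 8.2e-06), and Wt1 (-0.96, adjusted p = 0.00029). Their sum was 212 to 268 CPM in siControl and 86.3 to 129.6 in siPAK4. Of 7 portal fibroblast markers, 5 fell, with sums of 1081 to 1342 and 595 to 702 CPM. Fbln2, at 809 CPM in siControl, made up most of the siControl sum and fell (log2 fold change -1.34, adjusted p = 6.1e-06). Of 6 smooth muscle markers 5 fell, with sums of 65.8 to 82 and 39.8 to 56.9 CPM. Smtn, at 46.4 CPM in siControl, made up most of the siControl sum and did not pass (-0.39, adjusted p = 0.081). Des is in both the smooth muscle and the stellate list, and Krt7 and Krt19 are in both the mesothelial and the epithelial list. Eln, a portal fibroblast marker that fell, passed the filter through siControl, where it is high (0.282 CPM, against 0.0339 in siPAK4). Of 9 tested stellate markers, 1 rose and 2 fell, Pdgfrb by 0.85 on the log2 scale, with sums of 492 to 567 and 519.8 to 638 CPM. No mesothelial, portal fibroblast, smooth muscle or stellate marker was below 0.1 CPM in both groups. Of 11 tested macrophage markers 8 fell, with sums of 9136 to 10592 and 5099 to 8265 CPM. Lyz2 held most of these sums. The falls included Vsig4 (log2 fold change -2.92, adjusted p = 1.5e-05), Cd5l (-2.75, adjusted p = 2.3e-06), C1qb (-2.02, adjusted p = 8.1e-05) and Marco (-1.17, adjusted p = 3.6e-05). The median log2 fold change of the macrophage list was -1.95. Adgre1 (log2 fold change 0.14, adjusted p = 0.34) and Cd68 (-0.0435, adjusted p = 0.72) did not pass. Of 6 tested hepatocyte markers 4 rose, with sums of 1.73 to 3.49 and 7.75 to 18.3 CPM. Serpina1a, Serpina1c and Ahsg, among those that rose, had siControl means of 0.106, 0.133 and 0.172 CPM. They passed the filter through siPAK4, where they are high, so their rises are no separate support. Alb also rose (2.17, adjusted p = 0.00031). Epithelial and cholangiocyte markers, which bear on Cdh1, had no edgeR call among 7 tested, with 2 at an unadjusted p under 0.05, none called by DESeq2 and 1 by limma-voom. All 7 log2 fold changes were below 0 (median -0.29), and 3 fell without siPAK4 replicate 3. Of 8 Schwann and neural markers 3 were tested and 1 fell, Tubb3 (log2 fold change -1.76, adjusted p = 1.2e-06), while Sox10 and Snap25 were below 0.1 CPM in both groups. The part of these cells in the falls of Cdh2, Cdh3, Cdh11 and Cdh13 was not tested.

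**Figure D2:**
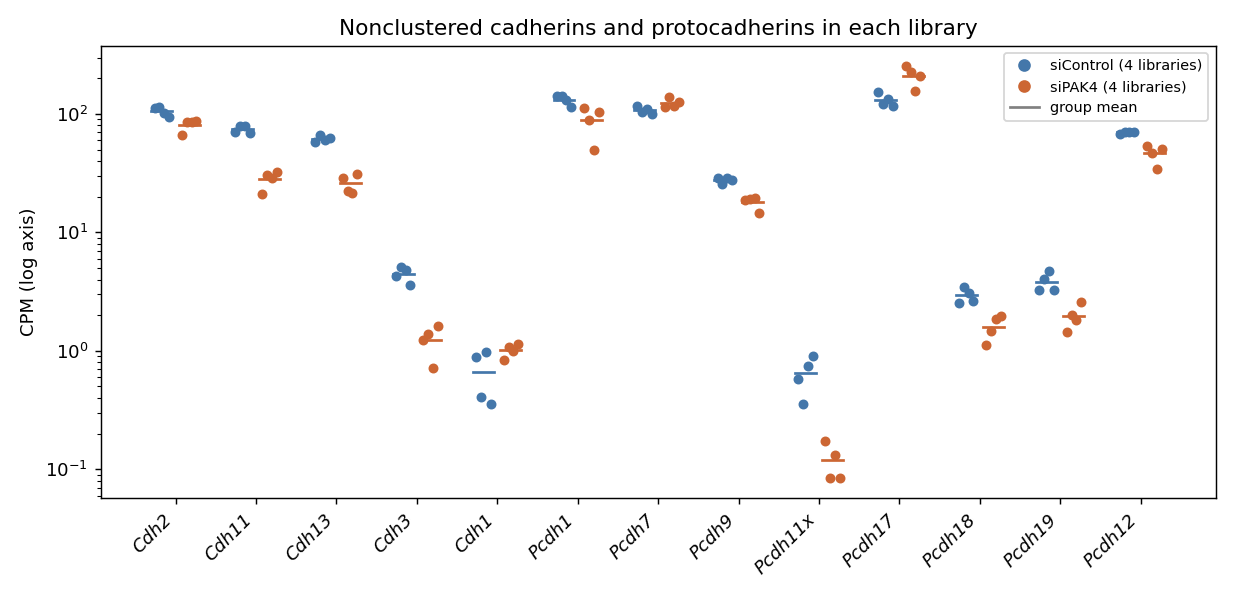
CPM on a log axis (y) of the 13 main members outside the clusters (x) in each siControl library (blue) and each siPAK4 library (orange), with a line at the group mean. The groups are separate for Cdh2, Cdh11, Cdh13 and Cdh3, with siPAK4 lower, and for Pcdh17, with siPAK4 higher, while those of Cdh1 and Pcdh7 overlap.

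The delta protocadherins are the protocadherins of the nervous system and of other tissues that stand alone in the genome, and they fall into delta-1, with longer outer and inner parts, and delta-2. Pcdh10, Pcdh17, Pcdh18 and Pcdh19 of the delta-2 group are known to bind the WAVE complex through their tails. Of the 5 delta-2 genes 3 were tested: Pcdh8 had no read, and Pcdh10 was not tested. The 3 tested ones all passed, but in opposite directions: Pcdh17 rose, whereas Pcdh18 and Pcdh19 fell. These shares are 33.3% and 66.7%, against 12.4% and 14.5% of all tested genes.

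The promoters of these 3 genes are shown because the genes are related and changed in opposite directions. Each sequence runs 5′ to 3′ on the strand of its gene, from 250 bases before the annotated start to 50 after, from RefSeq for GRCm38.p6. Pcdh17 is on the plus strand (chr14:84443313-84443612), Pcdh18 on the minus strand (chr3:49757267-49757566) and Pcdh19 on the minus strand (chrX:133688944-133689243). The starts used by the promoter table lie 67 bases inside the outer end of the gene given here for Pcdh18 and 51 bases inside it for Pcdh19, and coincide with it for Pcdh17. Capitals mark the GC box (GGGCGG, or CCGCCC for the other strand) and the CCAAT box (CCAAT, or ATTGG for the other strand).
Pcdh17: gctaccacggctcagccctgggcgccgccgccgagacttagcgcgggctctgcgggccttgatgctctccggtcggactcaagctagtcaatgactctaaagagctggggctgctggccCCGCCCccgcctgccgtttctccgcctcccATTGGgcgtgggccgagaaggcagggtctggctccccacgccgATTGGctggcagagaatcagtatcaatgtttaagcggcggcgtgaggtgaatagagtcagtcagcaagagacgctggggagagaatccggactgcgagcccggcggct
Pcdh18: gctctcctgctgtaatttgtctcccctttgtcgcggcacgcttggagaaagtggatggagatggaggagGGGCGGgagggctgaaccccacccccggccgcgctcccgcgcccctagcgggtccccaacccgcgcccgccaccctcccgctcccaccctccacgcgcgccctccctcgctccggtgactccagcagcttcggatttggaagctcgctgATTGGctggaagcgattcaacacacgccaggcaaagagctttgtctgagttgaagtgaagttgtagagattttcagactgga
Pcdh19: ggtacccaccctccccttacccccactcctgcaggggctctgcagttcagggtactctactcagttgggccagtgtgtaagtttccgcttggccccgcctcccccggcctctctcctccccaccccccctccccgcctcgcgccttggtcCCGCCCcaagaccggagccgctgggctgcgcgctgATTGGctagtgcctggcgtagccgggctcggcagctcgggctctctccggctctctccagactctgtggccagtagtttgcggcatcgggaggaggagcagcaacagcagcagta

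All 3 promoters held 1 GC box and at least 1 CCAAT box, which in each case read ATTGG on the strand of the gene. The CCAAT boxes began 101 and 58 bases before the start in Pcdh17, 32 bases before it in Pcdh18 and 65 bases before it in Pcdh19. Of the 32851 promoters of the same length in the table, 35.7% held a GC box and 37.4% a CCAAT box, in either strand. The CCAAT box was chosen after these sequences had been read, so its presence in all 3 cannot be weighed against that share. The shares were not matched for GC content either. Searched on both strands, none of the 3 held the E-box CAGGTG (found in 20.2% of all promoters), the TEAD site GGAATG (14.7%), the AP-1 site TGANTCA (7.81%), the TATA box TATAAA (13.6%) or the CArG box (1.63%). Their GC content of 65%, 63% and 67.7% for Pcdh17, Pcdh18 and Pcdh19 was above the median of 52.7%, and their 26, 23 and 18 CpG pairs above the median of 7. The 60 members on chromosome 18 were left out of this search. Among the members on other chromosomes, the promoter table matched 22, of which 4 passed the test, with Pcdh9 as the fourth.

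Pcdh17 (chromosome 14, 84443563 to 84537565) was the member with the largest rise. It read 153, 121, 133 and 118 CPM in siControl and 252, 225, 155 and 211 CPM in siPAK4. The groups did not overlap, but siPAK4 replicate 3 was close to siControl replicate 1. The log2 fold change was 0.68 (SE 0.131, adjusted p = 0.0029), or 1.6-fold. It is the one abundant delta-2 gene here, so the delta-2 share of the TPM of all members went from 7.47% in siControl to 12.5% in siPAK4.

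Pcdh18 and Pcdh19 had lower levels and fell. Pcdh18 (chromosome 3, 49743291 to 49757383) read 2.53, 3.48, 3.11 and 2.64 CPM in siControl and 1.11, 1.48, 1.85 and 1.96 CPM in siPAK4, that is a log2 fold change of -0.88 ± 0.191 (SE, with adjusted p = 0.0056). Pcdh19 (chromosome X, 133582860 to 133689044), known for its role in an epilepsy of girls and women, read 3.29, 4.07, 4.7 and 3.25 CPM in siControl and 1.45, 2.02, 1.83 and 2.59 CPM in siPAK4. Its log2 fold change was -0.96 (SE 0.189, adjusted p = 0.0031). In both genes every siPAK4 library was below every siControl library.

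Of the WAVE complex itself, all 11 listed genes were tested, 4 fell (36.4%) and none rose, against 14.5% and 12.4% of all tested genes. Among those that fell, Cyfip2, a subunit that links the complex to RAC, had a log2 fold change of -0.55 (adjusted p = 0.00029). The values were -0.25 for Abi2 (adjusted p = 0.013), -0.27 for Abi3 (0.018) and -0.19 for Cyfip1 (0.028). The median of the list was -0.24, against 0.00517 for all tested genes. Over the other processing settings, between 1 and 6 of the 11 fell.

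The delta-1 genes were all tested, and 2 of 4 fell (50%, against 14.5% of all tested genes). These falls include Pcdh11x, which passed the filter through siControl, where it is high. Pcdh9 (chromosome 14, 93013700 to 93892834) read 29.1, 25.6, 29.1 and 27.5 CPM in siControl and 18.9, 19.3, 19.7 and 14.7 CPM in siPAK4. The groups were apart, by a log2 fold change of -0.61 ± 0.093 (SE, with adjusted p = 0.00055). Its counts and its deposited TPM, 0.806 in siControl, stood in an unusual ratio: 34.9 CPM per TPM, where the median was 2.16 for the tested members and 1.3 for all tested genes, and only 6 tested genes had a higher ratio. On log2(TPM + 0.1) its log2 fold change of -0.59 did not pass (adjusted p = 0.067). The level of Pcdh9 per gene length is therefore uncertain.

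Pcdh11x, on chromosome X, was near the limit of detection. Its siControl libraries read 0.578, 0.357, 0.747 and 0.902 CPM, and its siPAK4 libraries 0.173, 0.085, 0.133 and 0.0852 CPM. It passed the filter through the siControl group, since 4 siControl libraries and 1 siPAK4 library reached the 0.174 CPM that the filter asks for on library totals, a scale that differs slightly from the TMM-scaled CPM above. Its log2 fold change of -2.42 (SE 0.39, adjusted p = 0.00084) is the largest fall of any member and rests on few reads.

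The other delta-1 genes were abundant and did not pass. Pcdh7 ranged from 99.3 to 117 CPM in siControl and from 115 to 138 CPM in siPAK4, giving a log2 fold change of 0.20 ± 0.0724 (SE, with adjusted p = 0.058). Of its exon bases, 21.1% are also exonic in a gene on the opposite strand, 4932441J04Rik, and the strand setting of the counting is not given in the sources used here. Pcdh1, known from the airway epithelium, had 141, 142, 131 and 115 CPM in siControl and 113, 88.2, 49.6 and 104 CPM in siPAK4. The groups did not overlap, but siPAK4 replicate 3 lay far below the others, and the log2 fold change of -0.57 (SE 0.212) did not pass (adjusted p = 0.074). Without that library it was -0.37 (adjusted p = 0.0068). Pcdh1 thus fell over the 7 remaining libraries.

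Pcdh12, a protocadherin of endothelial cells, was the last of those outside the clusters. It read 68.2, 70.4, 71 and 70.1 CPM in siControl and 53.9, 47.2, 34.4 and 50.5 CPM in siPAK4. All siPAK4 libraries were lower, replicate 3 most of all. The log2 fold change was -0.59 (SE 0.111, adjusted p = 0.0024). The endothelial markers moved beside it: 5 of 12 fell, Emcn by 1.08 and Stab2 by 0.47 on the log2 scale, and 3 rose, among them Tek by 0.32 and Egfl7 by 0.28. These shares are 41.7% and 25%, against 14.5% and 12.4% of all tested genes. The sum of the endothelial markers was 5570, 4929, 4055 and 5434 CPM in siPAK4 replicates 1 to 4, so replicate 3 was the lowest there too, and none of the 12 was below 0.1 CPM in both groups. As log2 ratios to the siControl mean, the markers stood at -0.11, -0.28, -0.57 and -0.14, Pcdh12 at -0.38, -0.57, -1.03 and -0.47, and Pcdh1 at -0.22, -0.58, -1.42 and -0.34 in those libraries. The 4 siPAK4 libraries had the same order in all of these. The siControl libraries did not: replicate 4 was the lowest for Pcdh1 (-0.20) and the highest for the endothelial markers (0.0265). In siPAK4, the gamma cluster sum (0.29, 0.13, -0.31 and 0.16) and Pcdhgc3 (0.36, 0.16, -0.35 and 0.25) had that order too, whereas Pcdh17 and Cdh13 did not. The order was therefore not particular to Pcdh12, Pcdh1 and the endothelial markers. The part of the endothelial cells in the levels of Pcdh12 and Pcdh1 was not tested.

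**Figure D3:**
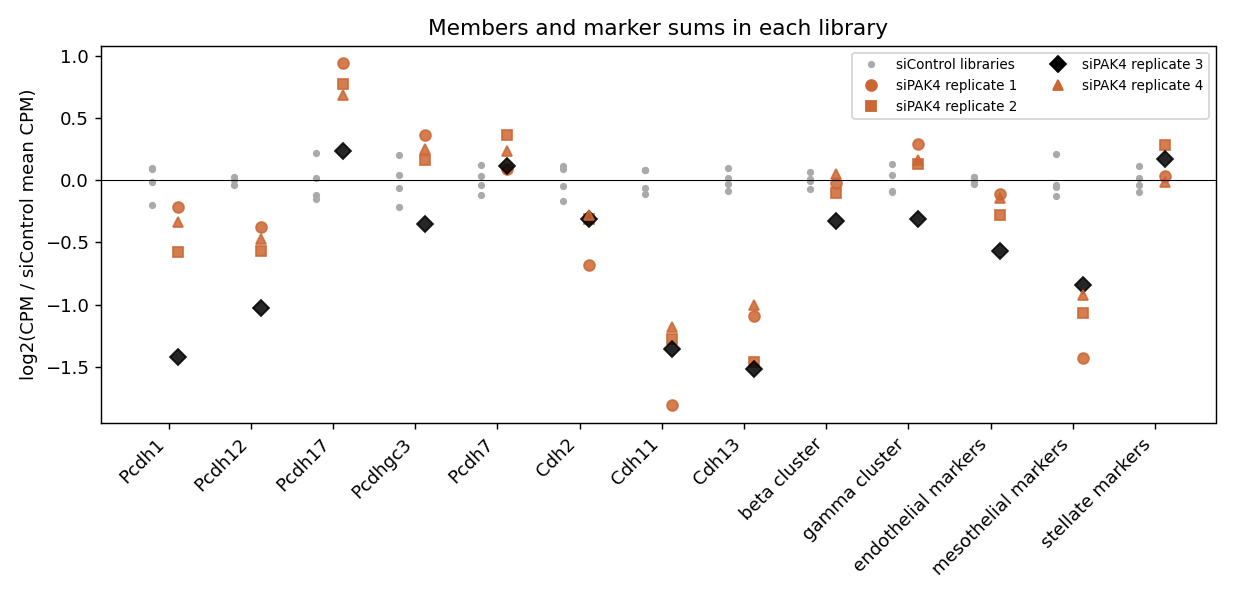
Log2 ratio of CPM to the siControl mean (y) for 8 members, the sums of the beta and gamma clusters and the sums of 3 marker lists (x), with siControl libraries as grey points and siPAK4 replicates by symbol, replicate 3 in black. Replicate 3 is the lowest siPAK4 library for Cdh13, Pcdh1, Pcdh12, Pcdh17, Pcdhgc3, both clusters and the endothelial markers, but not for Cdh2, Cdh11 or Pcdh7.

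The clustered protocadherins lie in 3 rows of genes on chromosome 18. In the alpha and gamma clusters each variable first exon is joined to constant exons that all genes of the cluster use, whereas beta genes are mostly single exons. In the annotation, all 21 gamma genes share 27.8% to 66.8% of their exon bases with other genes of the cluster (median 44.6%), and all 13 alpha genes found there share 28.5% to 54.9%, but only 2 of 22 beta genes share any. How the authors' counting split reads from the constant exons is not stated in the sources used here, so values of single alpha and gamma genes are uncertain.

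The alpha cluster was nearly silent: 1 of its 14 genes, Pcdhac2, was tested. It ranged from 2.25 to 2.75 CPM in siControl and from 1.87 to 3.17 CPM in siPAK4 and did not pass (adjusted p = 0.65). The summed alpha cluster held 2.72 to 3.91 CPM in siControl.

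The beta cluster was expressed mainly from its far end. Its 9 genes from Pcdhb14 to Pcdhb22 had 3.01 to 13.9 TPM in siControl, led by Pcdhb17, and its 13 genes from Pcdhb1 to Pcdhb13 had 0 to 2.31 TPM. The first set held 83.4% ± 0.444 of the TPM of the cluster in siControl and 85% ± 0.456 in siPAK4 (SD, n = 4 each). The ranges, 82.9% to 84% and 84.4% to 85.4%, did not overlap, although the shift was small. The cluster's sum was 106 to 116 CPM in siControl and 88.5 to 115 CPM in siPAK4.

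In single beta genes, 1 of 20 tested fell (5%) and none rose, against 14.5% and 12.4% of all tested genes. The one that fell, Pcdhb5, read 3.88, 3.72, 4.19 and 3.54 CPM in siControl and 2.97, 2.62, 2.28 and 3.42 CPM in siPAK4. The groups were apart by a narrow margin, and the log2 fold change was -0.44 (SE 0.141, adjusted p = 0.037), a call that was lost in 10 of 17 other settings. Pcdhb9, with 2.22 to 3.34 and 1.66 to 2.42 CPM, had the same log2 fold change of -0.44 and did not pass (adjusted p = 0.076). Of the 20 tested genes, 17 had a log2 fold change below 0, but 11 with library totals in place of TMM scaling, and 11 without siPAK4 replicate 3.

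The gamma cluster was the largest source of protocadherin RNA, with 31.2% of the TPM of all members in siControl and 36.8% in siPAK4. Pcdhgc3, a C-type gene at the end of the cluster, made up 46.7% ± 2.6 of the cluster in siControl and 48.1% ± 1.95 in siPAK4, and the other 20 genes had 2.15 to 10.4 TPM each in siControl. Pcdhgc3 read 169.5, 152, 141 and 127 CPM in siControl and 189, 164, 116 and 176 CPM in siPAK4. The groups overlapped, with replicate 3 the lowest of all 8 libraries, and the log2 fold change of 0.13 (SE 0.135) did not pass (adjusted p = 0.53). Without that library it was 0.26 and passed (adjusted p = 0.032). Of the exon bases of Pcdhgc3, 28.4% are also exonic in a gene on the opposite strand, BC037039.

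In the gamma cluster 3 of 21 genes rose, or 14.3%, near the 12.4% of all tested genes, and none fell. Pcdhga11 read 4.84, 5.16, 4.29 and 4.72 CPM in siControl and 6.65, 6.68, 5.31 and 5.96 CPM in siPAK4, without overlap (log2 fold change 0.37, SE 0.11, adjusted p = 0.027). Pcdhga8 ranged from 5.23 to 7.27 CPM in siControl and from 6.87 to 11.4 CPM in siPAK4, with overlap (0.52, SE 0.162, adjusted p = 0.034). Pcdhgc4, a C-type gene, ranged from 5.07 to 6.83 and from 6.67 to 10.2 CPM, also with overlap (0.46, SE 0.144, adjusted p = 0.035). Each of these rises was lost in 6 of 17 other settings, among them both fits on TPM. Opposite-strand genes cover 29% of the exon bases of Pcdhga11 and 8.79% of those of Pcdhga8. Log2 fold changes were above 0 in 15 of the 21 gamma genes, in 16 with library totals and in 16 without siPAK4 replicate 3.

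**Figure D4:**
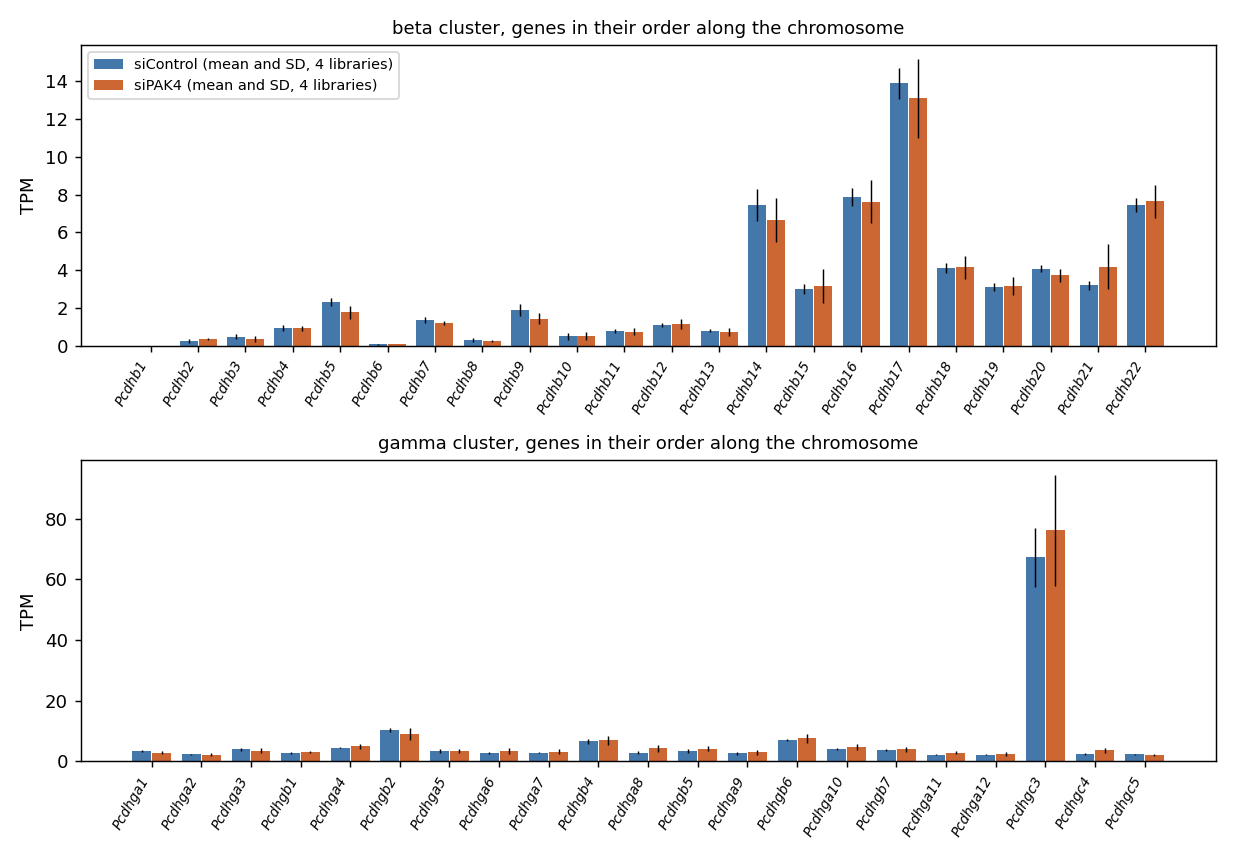
Mean TPM (y, bars from 0, with SD over 4 libraries) of the beta genes (top) and gamma genes (bottom) in their order along the chromosome (x), for siControl in blue and siPAK4 in orange. The beta genes from Pcdhb14 on have the higher bars, and Pcdhgc3 at 67.3 and 76.2 TPM exceeds every other gamma gene.

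The remaining 38 tested cluster genes did not pass. Their log2 fold changes lay between -0.44 and 0.41, with a median size of 0.13 and a median SE of 0.136, so changes of that size could not be told from the spread between libraries. The lowest adjusted p among them was 0.065, for Pcdhga1, with 6.61 to 8.35 CPM in siControl and 5.31 to 7.29 CPM in siPAK4 (log2 fold change -0.32). Pcdhgb2, the second gamma gene by level, ranged from 20.7 to 23.9 and from 14.4 to 21.3 CPM (-0.24, adjusted p = 0.13).

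One library ran through the clusters. Replicate 3 of siPAK4 was the lowest of the 4 siPAK4 libraries in 17 of 21 gamma genes and in 13 of 16 beta genes with at least 1 CPM. Over all 53 tested members of that level it was the lowest in 38, or 71.7%, against 34.5% of the 14359 tested genes of that level. Outside the clusters it was the lowest in 8 of 15. This library also had the highest macrophage marker sum of the siPAK4 group, 8265 CPM against 5099, 5242 and 5876. Without it, 9 members rose and 10 fell in place of 4 and 10: Pcdh7, Pcdhb21, Pcdhga6, Pcdhga10 and Pcdhgc3 were added to those that rose, and Pcdh1 took the place of Pcdhb5 among those that fell. Calls over all tested genes also grew without it, to 14.1% higher and 16.4% lower, and the members' shares were near these.

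Regulators of the clusters, 18 genes for CTCF, cohesin and DNA or histone methylation, were all tested. Of these, 1 rose (5.56%) and 3 fell (16.7%), with a median log2 fold change of -0.0114. Among all tested genes 12.4% rose and 14.5% fell, so the share of the list that fell was near that of all genes. Dnmt3a, a de novo DNA methyltransferase, had 119 ± 6.21 CPM in siControl and 75.9 ± 1.63 in siPAK4, a fall of -0.65 in log2 (adjusted p = 8.9e-06), and Dnmt1, which maintains methylation, had a log2 fold change of -0.29 (adjusted p = 0.002). Smchd1, a repressor of the clusters, had -0.19 (adjusted p = 0.045), and Stag1, a cohesin subunit, rose by 0.30 (adjusted p = 0.0021). Between 1 and 5 of the list rose over the other settings.

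The partners of classical cadherins inside the cell had log2 fold changes smaller in size than those of Cdh11 and Cdh3. Beside Cdh2 (-0.39), those of Jup, Ctnnd2 (-0.81, adjusted p = 0.037), Pkp3 and Ctnnal1 were larger in size. The other tested partners were smaller. No test of these differences was made. Of 13 catenins and plakophilins, 10 were tested, 1 rose (10%) and 4 fell (40%), against 12.4% and 14.5% of all tested genes. Ctnnb1, β-catenin, had 1236 ± 27.7 CPM in siControl and 1365 ± 76.5 in siPAK4 and did not pass (log2 fold change 0.14, adjusted p = 0.11). Jup, plakoglobin, fell from 67.5 ± 3.96 to 36.5 ± 7.86 CPM (-0.89, adjusted p = 0.00052). Ctnnd1, p120-catenin, which keeps cadherins at the surface, fell by less (-0.30, adjusted p = 0.035), as did Pkp3, a plakophilin of desmosomes (-0.70, adjusted p = 0.025), whereas Ctnnal1, an α-catenin-like protein, rose (0.68, adjusted p = 0.0015). Over the other settings 1 to 4 of the list fell.

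Of 18 nectins and scaffolds of the adherens junction, 5 fell (27.8%) and none rose, against 14.5% and 12.4% of all tested genes. Vcl, vinculin, which joins catenins to actin under tension, fell from 351 ± 18.9 to 239 ± 20.4 CPM (-0.55 in log2, adjusted p = 0.00016). Lima1, an actin-binding partner of α-catenin, had -0.37 (adjusted p = 0.0024), Ablim1, an actin-binding LIM protein, -0.35 (adjusted p = 0.0035) and Shroom3, an activator of apical contraction, -0.79 (adjusted p = 0.0055). The list's median was -0.26.

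Among 26 other genes of the cadherin superfamily, 15 were tested, 1 rose (6.67%) and 4 fell (26.7%), against 12.4% and 14.5% of all tested genes. Fat1, a giant atypical cadherin, fell from 190.5 ± 14.7 to 120.0 ± 16.1 CPM (-0.67 in log2, adjusted p = 0.00031). Celsr2 (-0.82, adjusted p = 0.024) and Celsr3 (0.74, adjusted p = 0.009), cadherins of planar cell polarity, passed in opposite directions. Cdhr1, a cadherin of photoreceptors, was under 1 CPM in both groups and fell (-1.40, adjusted p = 0.037). It is counted among the 4 that fell, but it passed the filter through siControl, where it is high (0.691 CPM, against 0.261 in siPAK4). Over the other settings 1 to 5 fell.

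Of 16 proteases that cut cadherins and γ-secretase genes, 15 were tested, 3 rose and 7 fell, with 2 to 3 and 4 to 7 over the other settings. These shares are 20% and 46.7%, against 12.4% and 14.5% of all tested genes. Adam12 fell from 89.2 ± 5.39 to 33.1 ± 7.43 CPM (-1.43 in log2, adjusted p = 2.4e-05) and Adam19 from 110.3 ± 9.17 to 67.3 ± 11.2 CPM (-0.71, adjusted p = 0.00071). Adam10, the main sheddase of N- and E-cadherin, was not among the 4 genes with the smallest adjusted p of its list and was named after its values were seen (-0.38, adjusted p = 0.005). Psen2, a catalytic subunit of γ-secretase, rose by 0.34 (adjusted p = 0.0015), and Aph1b, another subunit, had -0.43 (adjusted p = 0.0028).

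Of 18 repressors of cadherin genes and factors of the epithelial to mesenchymal transition, 12 were tested, 1 rose (8.33%) and 2 fell (16.7%). Among all tested genes 12.4% rose and 14.5% fell, so the share of the list that fell was near that of all genes. Snai1, a repressor of Cdh1, fell from 1.66 ± 0.131 to 0.894 ± 0.16 CPM (-0.89 in log2, adjusted p = 0.0037). Esrp2, a splicing factor of epithelia, fell from 1.37 ± 0.172 to 0.663 ± 0.0661 CPM (-1.04, adjusted p = 0.0015). Twist1, a mesenchymal transcription factor, rose from 4.48 ± 0.243 to 5.98 ± 0.506 CPM (0.42, adjusted p = 0.011). The median of the list was 0.00923.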

How the data were processed

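Polyadenylated RNA of 8 libraries, 4 per group, was sequenced with a stranded kit, per the labels' protocols. The authors deposited 1 table with read counts, FPKM and TPM per gene. The deposited counts are whole numbers without normalization. The deposited FPKM values are scaled to depth and gene length and entered no test. The deposited TPM values, scaled to the same total in each library, gave the levels per gene length and 2 alternative fits. The submitters' processing notes name HISAT2 2.1.0, Bowtie2 2.3.4.1, StringTie 2.1.3b, FastQC 0.11.7, bcl2fastq 2.20.0 and the build mm10. They do not name the counting step, which is not given in the sources used here.

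In R 4.3.3, genes were kept by filterByExpr of edgeR 4.0.16 (minimum count 10), which left 17975 of 45777, and the groups were compared by the robust quasi-likelihood test of edgeR after TMM scaling. P-values were adjusted by Benjamini-Hochberg over all tested genes, with a threshold of 0.05, and every adjusted p given is from this test unless another is named. CPM were computed on TMM-scaled library sizes. The standard error of a log2 fold change was derived from the F statistic. The procedure was tested on simulated data. Alternatives used DESeq2 1.42.0, limma 3.58.1, other scalings and filters, a replicate block, and each library left out in turn.

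The members and lists were chosen with earlier results of these data known. Named were members past the threshold or with a mean of at least 1 CPM in either group, the 4 untested members with the most reads, and up to 4 genes per list with the smallest adjusted p (or 2 by level where none passed). The marker lists do not follow this rule in full, so a named marker need not have the smallest adjusted p of its list. Ctnnb1, Ctnnd2, Adam10, Dcn, Lrat, Reln, Tek, Egfl7, Eln, Lyz2, Adgre1, Cd68 and Smtn fall outside this rule and were chosen after their values were seen. Coordinates are from a RefSeq table of GRCm38.p6, the build also called mm10, and shared exon bases from GENCODE M21. The CCAAT box was added to the motifs after the sequences had been read. Pairs of libraries of a group differed beyond sampling noise (chi-square over its degrees of freedom 12.7 to 67.8), so each counted as 1 sample. Columns that matched no sample numbered 0.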

Additional observations from a re-analysis of the deposited data

Results flagged for a closer look

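In 54 members, each group of 4 libraries was screened for a library whose gap to its nearest neighbour, divided by the group's range, was above Dixon's critical value at the 95% level. This marked 5 of 108 groups, and chance alone marks about 1 in 20. Cdh2 had 66.3 CPM in siPAK4 replicate 1, where the other siPAK4 libraries had 85.3 to 87.3 (ratio 0.908). Pcdh9 had 14.7 CPM in siPAK4 replicate 4, against 18.9 to 19.7 in the others (0.836). Pcdhb18 had 8.07 CPM in siPAK4 replicate 3, against 9.82 to 10.1 (0.846). Pcdhb13 had 1.82 CPM in siPAK4 replicate 4, against 0.968 to 1.07 (0.879). Pcdhb11 had 1.6 CPM in siControl replicate 3, against 1.24 to 1.28 (0.876). The marked libraries of Cdh2 and Pcdh9 lie on the side of their falls, and both genes also passed with each library left out in turn.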

How the results depend on the processing

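No called member changed sign in any of the 17 alternatives, and 8 of the 14 kept their call in all that tested them. The number of members that rose was 4 and became 1 with limma on log2(TPM + 0.1) and 1 on log2(TPM + 1), where Pcdhga11, Pcdhga8 and Pcdhgc4 were lost. With each library left out in turn it was 1 to 9: 9 without siPAK4 replicate 3, 3 without siControl replicate 4, 2 without siControl replicate 2 or siPAK4 replicate 1, and 1 without siControl replicate 3 or siPAK4 replicate 2. The number that fell was 10 and lay between 8 and 11 in every alternative. Among all tested genes, 2227 rose in the reported fit and 1607 to 3877 over the alternatives. Those that fell numbered 2605 in the reported fit and 1806 to 2953 over the alternatives. Pcdh9 was lost on log2(TPM + 0.1), and Pcdh11x on log2(TPM + 1) with a log2 fold change of -0.14 (adjusted p = 0.065), while at a mean of at least 1 CPM Pcdh11x was not tested. The cause was not tested. Of 40 named members that did not pass, 11 changed sign in some setting, none with a log2 fold change of the reported fit above 0.0777 in size, and 8 passed in at least 1 setting. Same-numbered libraries of the groups did not deviate together, with correlations of 0.103, -0.0425, 0.168 and -0.0971. With a replicate block, 4 members rose and 10 fell, of which 9 were shared: Pcdhb5 was lost (adjusted p = 0.062) and Pcdhgb2 gained (-0.26, adjusted p = 0.047). Members below 1 CPM rest on few reads.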
